A study of Homo sapiens with 9 samples.

Results

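Transcripts of 10 genes of the insulin-like growth factor (IGF) system were described in Hep3B cells, a human hepatocellular carcinoma line, before and after siRNA against YAP. The genes were chosen by name and were the receptors IGF1R and IGF2R, the substrates IRS1 and IRS2, and the binding proteins IGFBP1 to IGFBP6. Of the 10, 9 had a probe set listed for that gene alone, among 18417 genes with such a probe set. IGF1R had 2 such probe sets, and the brighter was used unless stated. The only probe set of IGFBP6 was also listed for C12orf57, so no IGFBP6 value is given.

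Total RNA was measured on 9 Affymetrix gene arrays, 3 each for untreated cells, cells transfected with nonsense siRNA as a transfection control, and cells transfected with YAP-specific siRNA. All cells were grown for 24 h. Transfection used Oligofectamine, and RNA of the transfected cells was taken after another 24 h of culture. No such second period is given for the untreated cells, so their time in culture may differ. The cell line field and descriptions name Hep3B, while sample titles begin with HUH, and Hep3B was followed here. The labels do not state separate cultures for the 3 samples within a group, so p-values measure only the spread between these samples, which may be technical.

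IGF1 and IGF2 are secreted ligands, made largely by liver. They signal through IGF1R, a receptor tyrosine kinase closely related to the insulin receptor, which recruits the docking proteins IRS1 and IRS2 and through them phosphoinositide 3-kinase (PI3K) and AKT. AKT keeps the FOXO transcription factors out of the nucleus. The IGF-binding proteins hold the ligands in the circulation and around cells, and IGF2R, which has no kinase, carries IGF2 to lysosomes. YAP, encoded by YAP1, is the coactivator that the Hippo pathway restrains, and it binds DNA through TEAD factors.

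The upstream sequences of IGF1R, IRS1 and IRS2 are shown with that of IGFBP5, a binding protein gene that holds the TEAD letters and whose change did not pass the test. Mean levels of IGF1R, IRS1, IRS2 and IGFBP1 were lowest after YAP siRNA, and no promoter was supplied for IGFBP1. RefSeq (GRCh38.p14) promoters were supplied for 9 of the 10 genes, and the 250 bases before the gene start were read, 5' to 3' on the gene's strand. Capitals mark GGAATG (TEAD) and CAAAACAA (part of an insulin response element) on either strand.
IGF1R, chr15:98648289-98648538, + strand: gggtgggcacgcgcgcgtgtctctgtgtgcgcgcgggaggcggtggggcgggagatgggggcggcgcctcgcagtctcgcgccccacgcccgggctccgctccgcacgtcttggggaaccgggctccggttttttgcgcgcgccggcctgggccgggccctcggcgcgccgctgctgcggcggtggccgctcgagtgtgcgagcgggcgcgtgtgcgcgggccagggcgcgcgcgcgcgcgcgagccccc
IRS1, chr2:226799821-226800070, - strand: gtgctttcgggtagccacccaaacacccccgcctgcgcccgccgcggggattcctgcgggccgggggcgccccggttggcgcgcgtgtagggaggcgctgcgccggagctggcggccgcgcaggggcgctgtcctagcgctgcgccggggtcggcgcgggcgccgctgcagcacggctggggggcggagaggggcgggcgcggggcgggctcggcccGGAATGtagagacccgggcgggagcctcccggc
IRS2, chr13:109786584-109786833, - strand: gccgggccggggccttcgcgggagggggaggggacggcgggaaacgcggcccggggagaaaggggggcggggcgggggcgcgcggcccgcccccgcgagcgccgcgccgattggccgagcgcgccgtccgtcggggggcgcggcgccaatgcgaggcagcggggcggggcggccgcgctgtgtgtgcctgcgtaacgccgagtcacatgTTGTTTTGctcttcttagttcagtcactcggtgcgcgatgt
IGFBP5, chr2:216695550-216695799, - strand: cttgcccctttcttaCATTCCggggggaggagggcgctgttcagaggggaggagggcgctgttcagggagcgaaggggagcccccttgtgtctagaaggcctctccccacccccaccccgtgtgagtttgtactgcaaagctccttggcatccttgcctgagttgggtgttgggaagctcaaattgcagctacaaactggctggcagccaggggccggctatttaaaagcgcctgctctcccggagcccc

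IRS1 held GGAATG from 33 to 28 bases before its start, and IRS2 held CAAAACAA, on the opposite strand, from 41 to 34 bases before its start. IGFBP5 held GGAATG on the opposite strand from 235 to 230 bases before its start. IGF1R held none of the 4 letter strings searched on both strands, which also included CAAAATAA (part of an insulin response element) and GTAAACA (FOXO core). IGF2R, IGFBP2, IGFBP3, IGFBP4 and the insulin receptor gene INSR held none either. IGFBP6 held GTAAACA and GGAATG. Over all 35116 promoter entries, 11.9% held GGAATG, 1.46% held CAAAACAA, 1.40% held CAAAATAA and 2.98% held GTAAACA. The G and C share of these 250 bases was 81.2% for IGF1R, 80.8% for IRS1, 76.4% for IRS2 and 61.2% for IGFBP5, against a median of 58.0% over all entries. A match is a stretch of letters, and binding was not measured here.

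Against nonsense siRNA, the receptor gene IGF1R fell by 0.30 and the substrate gene IRS2 fell by 0.23 on the log2 scale after YAP siRNA. None of the 9 genes rose, and IRS1, at -0.27, IGF2R and the 5 measured binding proteins did not pass. Against untreated cells IGF1R fell by 0.25 and was the only one of the 9 to pass. The test was limma's moderated one, two-sided, with Benjamini-Hochberg adjustment over all genes, and passing means an adjusted p under 0.05. The 2 of 9 that passed against nonsense siRNA stand beside 4.53% of all genes (1.92% higher and 2.61% lower), and the 1 of 9 against untreated cells beside 3.09% (1.63% higher and 1.46% lower). The 9 were chosen with earlier results of these data known, and the shares over all genes include dim genes. The comparisons share the YAP siRNA arrays. Median differences over the 9 genes were 0.02 against nonsense siRNA and -0.15 against untreated cells, where those over all genes were 0.01 and -0.01. The YAP1 transcript, the check of the labels, averaged 7.51 ± 0.03 (SD, n = 3) on the YAP siRNA arrays and 8.70 ± 0.05 (SD, n = 3) on the nonsense siRNA arrays.

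**Figure D1:**
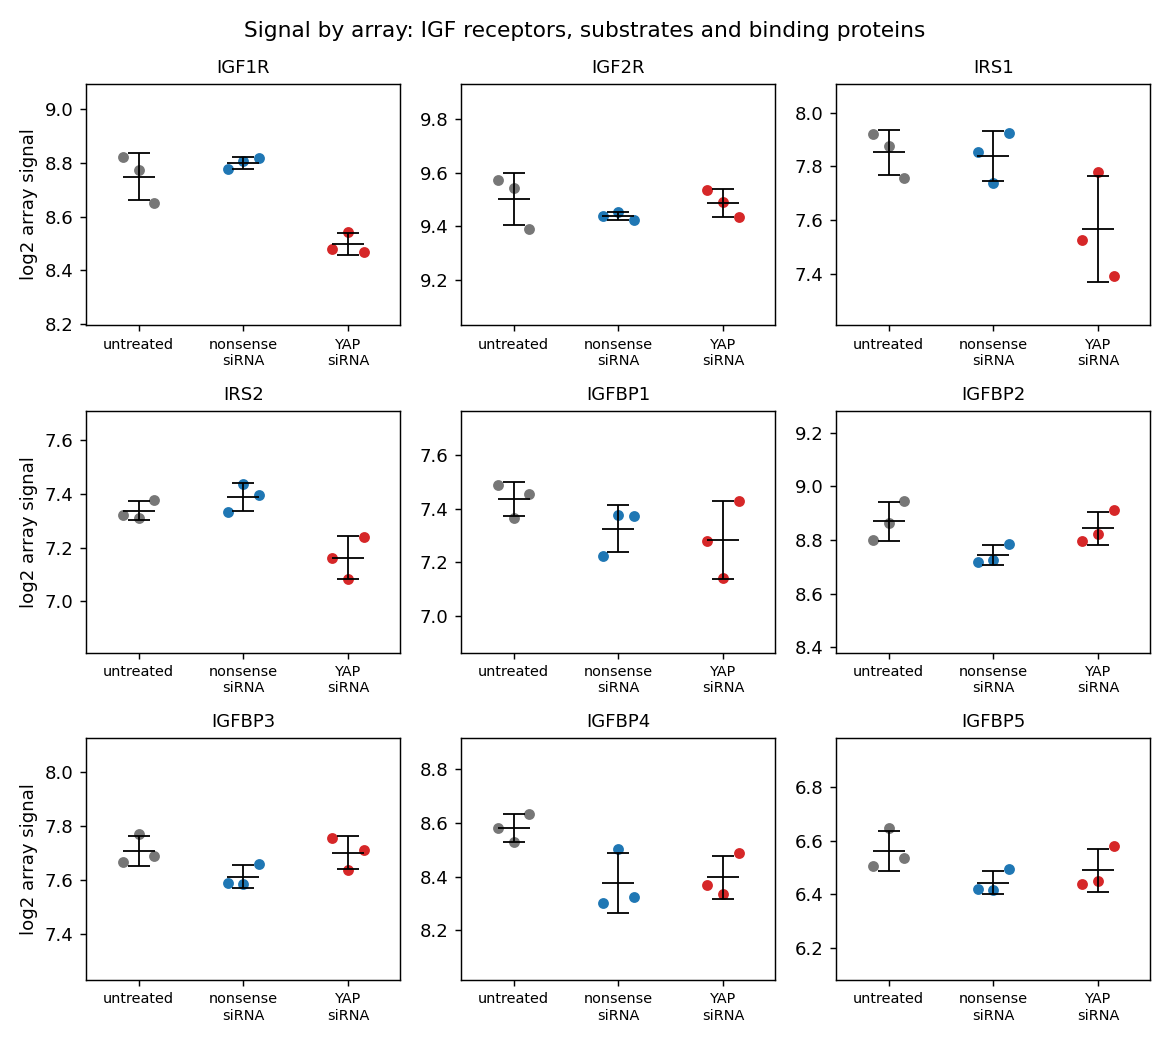
The log2 array signal (vertical axis, a range of 0.9 in each panel) of the 9 measured genes is plotted by group, with a point per array and the mean ± SD of 3 arrays as bars. The 3 YAP siRNA arrays lie below all 6 control arrays for IGF1R and IRS2, and overlap with control arrays in the other 7 panels.

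IGF1R, the kinase receptor for IGF1 and IGF2, was measured at 8.82, 8.77 and 8.65 in untreated cells, 8.78, 8.81 and 8.82 after nonsense siRNA, and 8.48, 8.54 and 8.47 after YAP siRNA (log2 signal, replicates 1 to 3). All 3 YAP siRNA arrays lay below the lowest control array, and the control groups overlapped. IGF1R fell by 0.30 against nonsense siRNA (SE 0.0556, limma adjusted p = 0.00427), which left 81.0% of that level, and fell by 0.25 against untreated cells (SE 0.0556, limma adjusted p = 0.0194), which left 84.0%. Between the controls it differed by 0.05 (95% interval -0.07 to 0.17, limma adjusted p = 0.615). The fall against nonsense siRNA passed in all 22 alternatives, which include the 9 fits that left out 1 array. The largest limma adjusted p was 0.0486, with the mean signal of small nucleolar RNA genes as a covariate. Among the 9 fits it was 0.0250, without YAP siRNA replicate 1. The fall against untreated cells did not pass without untreated replicate 1 (adjusted p = 0.107), untreated replicate 2 (0.0855) or YAP siRNA replicate 1 (0.0965), or with all probe sets tested (0.0834).

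The dimmer IGF1R probe set moved the same way. It was measured at 8.51, 8.65 and 8.69 in untreated cells, 8.68, 8.64 and 8.79 after nonsense siRNA and 8.37, 8.39 and 8.32 after YAP siRNA, again with no overlap of the YAP siRNA arrays with the controls. In a fit of all 33297 probe sets it fell by 0.34 against nonsense siRNA (SE 0.0601, limma adjusted p = 0.0370), beside a fall by 0.30 for the brighter set (0.0323). Against untreated cells the differences in that fit were -0.26 (adjusted p = 0.130) and -0.25 (0.0834), which did not pass.

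**Figure D2:**
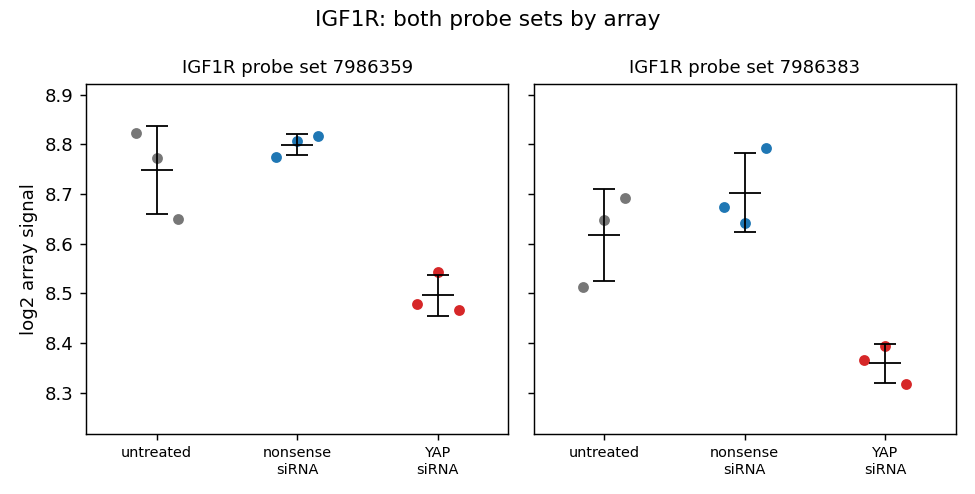
The log2 array signal (vertical axis) of each IGF1R probe set is plotted by group, with a point per array and the mean ± SD of 3 arrays as bars. In both panels the 3 YAP siRNA arrays lie below all 6 control arrays.

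IGF2R, the receptor that clears IGF2, stayed within the spread of its controls. It was measured at 9.57, 9.54 and 9.39 in untreated cells, 9.44, 9.46 and 9.42 after nonsense siRNA and 9.54, 9.49 and 9.43 after YAP siRNA. The 3 groups overlapped. The difference was 0.05 against nonsense siRNA (95% interval -0.07 to 0.17, limma adjusted p = 0.796) and -0.02 against untreated cells (95% interval -0.14 to 0.11, limma adjusted p = 0.928).

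IRS2, a docking protein for the insulin and IGF1 receptors with a leading part in liver, was measured at 7.32, 7.31 and 7.38 in untreated cells, 7.33, 7.43 and 7.40 after nonsense siRNA, and 7.16, 7.08 and 7.24 after YAP siRNA. The YAP siRNA arrays were the 3 lowest of the 9. IRS2 fell by 0.23 against nonsense siRNA (SE 0.0557, limma adjusted p = 0.0287), which left 85.5% of that level. Against untreated cells it differed by -0.17 (SE 0.0557, limma adjusted p = 0.119), and this passed with array weights, at -0.18 (adjusted p = 0.0317), and with the mean signal of small nucleolar RNA genes as a covariate (the small RNA covariate), at -0.19 (0.0459). The order of the group means was nonsense siRNA, untreated and YAP siRNA, and the first 2 differed by 0.05 (limma adjusted p = 0.617). The fall against nonsense siRNA did not pass without nonsense siRNA replicate 1 (adjusted p = 0.0557), 2 (0.0622) or 3 (0.0962), or without YAP siRNA replicate 1 (0.0945) or 2 (0.143), nor with only the 6 arrays of the comparison (0.0517) or all probe sets tested (0.0906).

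IRS1, the other docking protein, had the widest spread of the 9 genes within the YAP siRNA group. It was measured at 7.92, 7.88 and 7.76 in untreated cells, 7.85, 7.74 and 7.92 after nonsense siRNA and 7.53, 7.78 and 7.39 after YAP siRNA. YAP siRNA replicate 2 lay within the range of both control groups, while replicates 1 and 3 lay below it. The difference was -0.27 against nonsense siRNA (SE 0.0837, limma adjusted p = 0.0874) and -0.29 against untreated cells (SE 0.0837, limma adjusted p = 0.0866), neither of which passed. Without YAP siRNA replicate 2 they were -0.38 (adjusted p = 0.0114) and -0.39 (0.0132), and without nonsense siRNA replicate 2 the first was -0.32 (0.0379). With the mean signal of 192 small nucleolar RNA genes as a covariate the difference against nonsense siRNA was -0.16 (adjusted p = 0.509). That mean signal was 6.98 to 7.05 on the nonsense siRNA arrays, 6.89 to 6.99 on the YAP siRNA arrays and 6.89 to 7.00 on the untreated arrays, and its part in the result was not tested beyond this fit. With array weights IRS1 passed against both controls (adjusted p = 0.00508 and 0.0130).

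**Figure D3:**
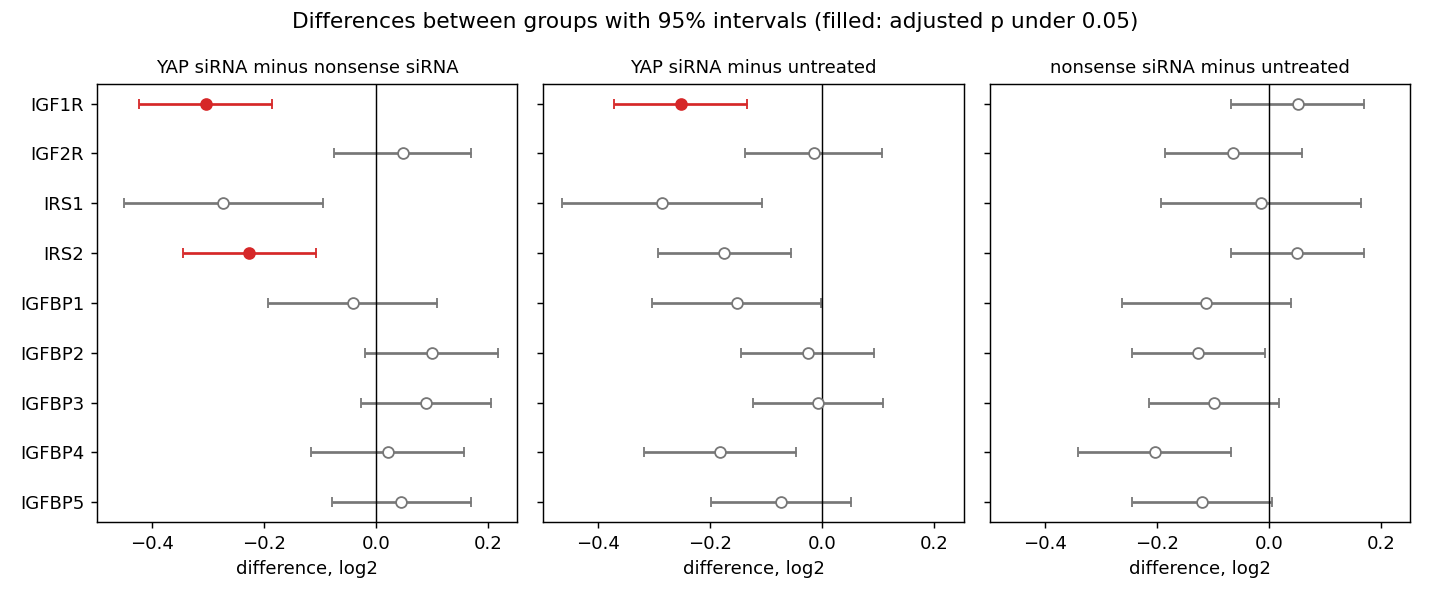
Differences in log2 signal (horizontal axis) of the 9 genes are plotted for the 3 comparisons, with 95% intervals from the limma fit as bars and filled points for an adjusted p under 0.05. The intervals of IGF1R, IRS2 and IRS1 lie below 0 against nonsense siRNA, with an open point for IRS1, which did not pass, and those of the 5 binding proteins include 0 there.

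Of the 5 binding proteins measured, 0 passed in any of the 3 comparisons by limma. An unadjusted p under 0.05 was found for IGFBP2 and IGFBP4 between the controls and for IGFBP1 and IGFBP4 between YAP siRNA and untreated cells. Of all 18417 genes, 3597 had such a p between the controls and 2904 between YAP siRNA and untreated cells. Against nonsense siRNA their differences ranged from -0.04 for IGFBP1 to 0.10 for IGFBP2. IGFBP1, a binding protein made by liver and repressed by insulin through FOXO factors, was measured at 7.49, 7.37 and 7.46 in untreated cells, 7.22, 7.38 and 7.37 after nonsense siRNA and 7.28, 7.14 and 7.43 after YAP siRNA. The siRNA groups overlapped with each other and with untreated cells. IGFBP1 differed by -0.04 between YAP and nonsense siRNA (95% interval -0.19 to 0.11, limma adjusted p = 0.872) and by -0.15 between YAP siRNA and untreated cells (limma adjusted p = 0.310).

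IGFBP3, the main carrier of IGFs in serum, was measured at 7.67, 7.77 and 7.69 in untreated cells, 7.59, 7.59 and 7.66 after nonsense siRNA and 7.76, 7.64 and 7.71 after YAP siRNA. It differed by 0.09 between YAP and nonsense siRNA (95% interval -0.03 to 0.21, limma adjusted p = 0.487). IGFBP2, another circulating binding protein, was measured at 8.80, 8.86 and 8.94 in untreated cells, 8.72, 8.73 and 8.79 after nonsense siRNA and 8.80, 8.82 and 8.91 after YAP siRNA. In IGFBP2 the nonsense siRNA arrays lay below all others, by 0.10 against YAP siRNA (95% interval -0.02 to 0.22 for YAP siRNA minus nonsense siRNA, limma adjusted p = 0.437). IGFBP2, IGF1R and IRS2 were the 3 of 9 genes whose arrays did not overlap between YAP and nonsense siRNA, beside 20.2% of all genes. Between YAP siRNA and untreated cells IGF1R, IRS2 and IGFBP4 were the 3 without overlap, beside 20.5%.

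IGFBP4, a binding protein that inhibits IGF action until it is cleaved, was measured at 8.58, 8.53 and 8.63 in untreated cells. After nonsense siRNA it was at 8.30, 8.50 and 8.33, and after YAP siRNA at 8.37, 8.33 and 8.49. All 6 siRNA arrays lay below the 3 untreated arrays. IGFBP4 differed from untreated cells by -0.20 after nonsense siRNA (SE 0.0640, limma adjusted p = 0.130) and by -0.18 after YAP siRNA (SE 0.0640, limma adjusted p = 0.163), and by 0.02 between the siRNAs (95% interval -0.12 to 0.16, limma adjusted p = 0.939). Without nonsense siRNA replicate 2 the first of these passed, at -0.27 (adjusted p = 0.0192). It also passed with array weights (0.0105) and with 3 arrays left out together (0.0130), namely replicate 3 of the YAP siRNA and of the untreated group and replicate 2 of nonsense siRNA. After YAP siRNA the difference from untreated cells passed with array weights (adjusted p = 0.0310), with the small RNA covariate (0.0493) and without those 3 arrays (0.0372).

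IGFBP5, which binds matrix as well as IGFs, was the dimmest of the 5 relative to all genes, at percentile 19.8 of mean signal. It was measured at 6.50, 6.65 and 6.53 in untreated cells, 6.42, 6.42 and 6.49 after nonsense siRNA and 6.44, 6.45 and 6.58 after YAP siRNA, and differed by 0.05 between the siRNAs (95% interval -0.08 to 0.17, limma adjusted p = 0.814). IGFBP5 and IGFBP2 are neighbours on chromosome 2, and IGFBP1 and IGFBP3 on chromosome 7, with 0 annotated genes between the members of each pair.

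Nonsense siRNA was set against untreated cells to show what differed with transfection of a control siRNA, though time in culture may also have differed. By limma 0 of the 9 genes passed, beside 0.614% of all genes (0.337% higher and 0.277% lower). An unadjusted p under 0.05 was found for 2 of 9 (IGFBP2 and IGFBP4), beside 3597 of all 18417 genes. The differences ranged from -0.20 for IGFBP4 to 0.05 for IGF1R, with a median of -0.10, where that over all genes was -0.02. All 5 binding proteins had negative differences, with -0.13 for IGFBP2, -0.12 for IGFBP5, -0.11 for IGFBP1 and -0.10 for IGFBP3. In 4 of the 9 genes (IGFBP2 to IGFBP5) the arrays did not overlap, beside 22.7% of all genes.

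Of 64 other measured genes of the insulin and IGF pathway, 5 fell and 3 rose against nonsense siRNA (12.5%, beside the 4.53% of all genes given above), with a median difference of -0.01. The lists were chosen with earlier results of these data known, so these shares are no independent comparison. Of the 8 that passed, all except PPARGC1A lay at percentiles 58.3 to 87.1 of mean signal. With only genes at or above the 50th percentile of signal, 9 pathway genes passed, beside 891 of the 9209 genes kept. That share of the genes kept is larger than the 4.53% over all genes. Some of the 64 pathway genes, such as IGF1, were left out by that filter. Among 16 receptors and adaptors, INSR, which encodes the insulin receptor, was the 1 that passed. INSR was measured at 8.49, 8.43 and 8.33 in untreated cells, 8.42, 8.33 and 8.47 after nonsense siRNA and 8.10, 7.95 and 8.01 after YAP siRNA. The YAP siRNA arrays lay below all 6 control arrays. INSR fell by 0.39 against nonsense siRNA (SE 0.0608, limma adjusted p = 0.00125), to 76.4% of that level, and fell by 0.40 against untreated cells (limma adjusted p = 0.00149). Both falls passed in all 22 alternatives.

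Among 22 genes of the PI3K, AKT and mTOR arm, 3 fell and 0 rose. PIK3CB, which encodes a catalytic subunit of PI3K, was measured at 8.82, 9.05 and 8.84 in untreated cells, 9.15, 8.997 and 9.20 after nonsense siRNA and 8.59, 8.63 and 8.37 after YAP siRNA. The YAP siRNA arrays were again the lowest 3. PIK3CB fell by 0.58 against nonsense siRNA (SE 0.0793, limma adjusted p = 0.000387) and fell by 0.37 against untreated cells (SE 0.0793, limma adjusted p = 0.0169), and the latter did not pass without untreated replicate 2, at -0.30 (adjusted p = 0.0961), or with all probe sets tested (0.154). PHLPP2, a phosphatase gene that acts against AKT, fell by 0.32 against nonsense siRNA (limma adjusted p = 0.00707) and differed by -0.06 from untreated cells. That fall did not pass without nonsense siRNA replicate 1 (adjusted p = 0.0534), with the small RNA covariate, at -0.24 (0.0856), or with all probe sets tested (0.0609). For nonsense siRNA minus untreated PHLPP2 differed by 0.255 (limma adjusted p = 0.0756). This passed with array weights (adjusted p = 0.00629), without nonsense siRNA replicate 2 (0.0108) and without the 3 arrays left out together (0.0125). GSK3A, a kinase gene whose product AKT inhibits, fell by 0.21 against nonsense siRNA (limma adjusted p = 0.0457). GSK3A passed in 2 of 9 fits that left out 1 array (without untreated replicate 1 or 3) and in 7 of 22 alternatives.

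Among 14 FOXO factors and hepatic insulin-response genes, 3 rose and 0 fell against nonsense siRNA. TXNIP, whose product limits glucose uptake, rose by 0.36 (SE 0.0600, limma adjusted p = 0.00201), SESN3, a sestrin gene, by 0.31 (SE 0.0648, limma adjusted p = 0.0102) and PPARGC1A, a coactivator of gluconeogenic genes, by 0.26 (SE 0.0600, limma adjusted p = 0.0214). PPARGC1A lay below the median over genes, at percentile 36.3 of mean signal. Against untreated cells TXNIP rose by 0.25, SESN3 by 0.32 and PPARGC1A by 0.32, while the kinase-like gene TRIB3 fell by 0.27 and the lipogenic factor gene SREBF1 fell by 0.22. FOXO1 itself differed by -0.08 against nonsense siRNA (limma adjusted p = 0.612). The gluconeogenic genes G6PC1, at 0.05 (limma adjusted p = 0.741), and PCK1, at -0.01 (limma adjusted p = 0.973), did not pass and were dim, at percentiles 10.1 and 22.4 of mean signal. TRIB3 was also lower after nonsense siRNA than in untreated cells, where it fell by 0.33 (SE 0.0593, limma adjusted p = 0.0246). It was the 1 of 64 that passed between the controls, beside 0.614% of all genes. TRIB3 did not pass there without replicate 1 (adjusted p = 0.172) or 3 (0.121) of the nonsense siRNA group, or without untreated replicate 1 (0.0967), 2 (0.0863) or 3 (0.0637). Nor did it pass with all probe sets tested (0.171) or the small RNA covariate (0.0804).

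Several of these calls did not pass when 1 array was left out, while the differences kept their direction. Against nonsense siRNA, PPARGC1A did not pass without nonsense siRNA replicate 1 (adjusted p = 0.0679) or 3 (0.0944) or YAP siRNA replicate 2 (0.110), and SESN3 did not pass without nonsense siRNA replicate 1 (0.0583) or 3 (0.0555). With all probe sets tested neither PPARGC1A (0.0969) nor SESN3 (0.0792) passed, and with the small RNA covariate PPARGC1A did not (0.0618). Against untreated cells, of 9 fits that left out 1 array, SESN3 passed in 7 (lost without YAP siRNA replicate 1 or 2), TXNIP in 3 (kept without nonsense siRNA replicate 2 or 3 or untreated replicate 3), TRIB3 in 5 (lost without untreated replicate 1 or 2 or YAP siRNA replicate 1 or 2), SREBF1 in 4 (lost without untreated replicate 1 or 2 or any YAP siRNA replicate) and GSK3A, which fell by 0.25, in 5 (lost without untreated replicate 1 or 2 or YAP siRNA replicate 1 or 3). The largest adjusted p in those fits was 0.0585 for SESN3, 0.150 for TXNIP, 0.0930 for TRIB3, 0.118 for SREBF1 and 0.128 for GSK3A. With all probe sets tested PPARGC1A (0.0637), SESN3 (0.0961), TXNIP (0.142), TRIB3 (0.106), SREBF1 (0.0629) and GSK3A (0.107) did not pass against untreated cells. TXNIP also did not pass there with quantile normalization (0.0526), nor GSK3A with each array centred on its median (0.0588).

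Of 9 ligands and carriers measured, 0 passed in any comparison by limma. Against nonsense siRNA 1 of 9 had an unadjusted p under 0.05, beside 2904 of all 18417 genes. IGF1 differed by 0.01 between the siRNAs (limma adjusted p = 0.952) and was dim, at percentile 9.0 of mean signal. The probe set of IGF2 is listed for several genes, so no IGF2 value is given. Of the 3 IGF2 mRNA-binding protein genes, IGF2BP3 fell by 0.39 against nonsense siRNA (limma adjusted p = 0.00183), while IGF2BP2, at -0.21 (0.0620), and IGF2BP1, at -0.03 (0.850), did not pass. For nonsense siRNA minus untreated IGF2BP3 differed by 0.19 (limma adjusted p = 0.146). This passed with array weights (adjusted p = 0.0198) and without the 3 arrays left out together (0.0449). Against untreated cells, after YAP siRNA, IGF2BP3 differed by -0.20 (limma adjusted p = 0.121). In that comparison 5 of the 64 pathway genes passed as lower (INSR, PIK3CB, GSK3A, TRIB3 and SREBF1) and 3 as higher. They stand beside 3.09% of all genes (1.63% higher and 1.46% lower), and the lists were chosen with earlier results known. The median difference of the 64 was -0.05.

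**Figure D4:**
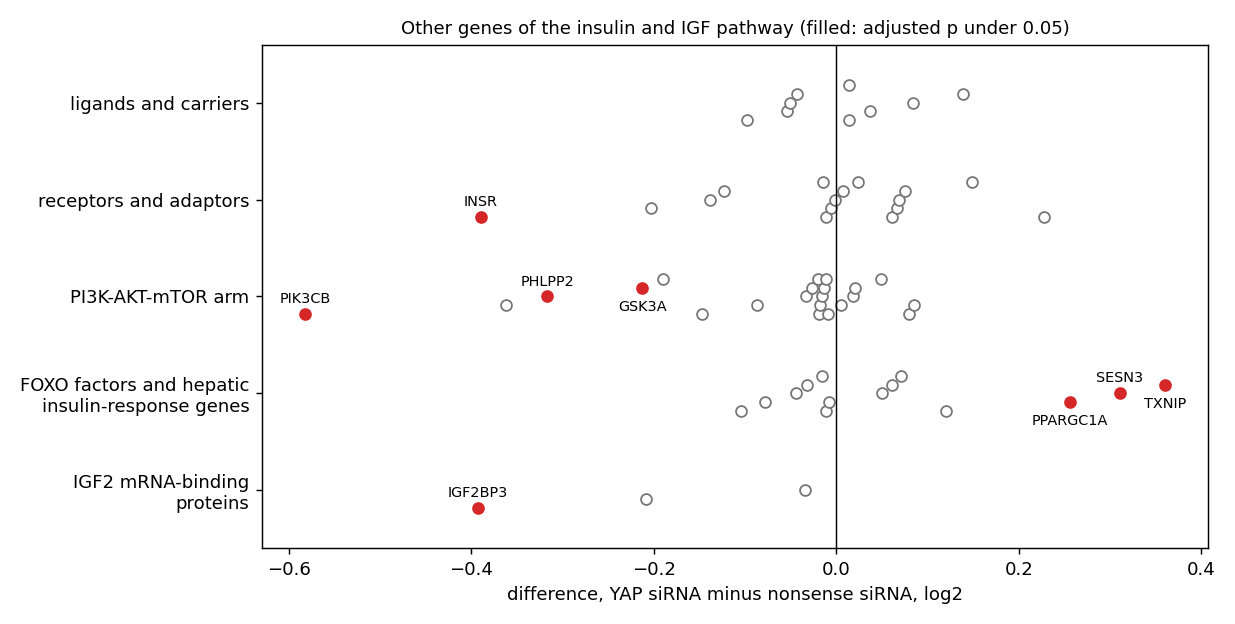
The difference in log2 signal between YAP siRNA and nonsense siRNA (horizontal axis) is plotted for 64 other pathway genes in 5 lists (vertical axis, with points spread only for legibility), with filled, named points for an adjusted p under 0.05. The 5 filled points to the left of 0 reach -0.58 for PIK3CB, and the 3 to the right, all in the FOXO list, reach 0.36 for TXNIP.

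The genes whose levels followed IGF1R most closely over the 9 arrays, among 9208 others with at least the median signal, were DLC1 (Pearson's r 0.983), ZNF609 (0.982) and DDX17 (0.978). For IRS2 they were TLCD3A (0.955), ATXN1 (0.947) and KLHL28 (0.947), among 9209. These values describe the search for the highest r, and the arrays share the groups, so a common drop in the YAP siRNA arrays gives a high r. DLC1 differed by -0.41 between YAP and nonsense siRNA and by 0.04 between the controls, where IGF1R differed by -0.30 and 0.05. Among the 9 genes themselves r was highest for IGF1R with IRS1 (0.850) and lowest for IGF1R with IGFBP2 (-0.478).

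Array medians over genes differed by at most 0.05 in log2 signal. Of 11 hepatocyte markers fixed for the check of the cell type, 10 were measured, and all 10 lay above the median signal over genes of 7.31. Their mean signal was 10.36 to 10.52 over the 9 arrays, and 1 of the 10, AHSG, rose by 0.29 against nonsense siRNA (SE 0.0650, limma adjusted p = 0.0162). Of 5 endothelial markers 0 lay above that median, of 5 leukocyte markers 1 did, and of 4 cholangiocyte markers 3 did. Of 8 stromal markers 2 did, and 2 (COL1A2 and PDGFRA) rose against nonsense siRNA; their mean signal was 7.14 to 7.20 in untreated cells, 7.05 to 7.11 after nonsense siRNA and 7.17 to 7.20 after YAP siRNA, and their part in the results above was not tested.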

How the data were processed

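Biotinylated cRNA was hybridised by the standard Affymetrix protocol, per the labels' protocols. The authors deposited log2 array signals, a unit read here from the range of the values (1.26 to 13.8). How background, summarisation and normalization were handled is not given in the sources used here. No further scaling was applied. Groups and replicate numbers came from the sample titles.

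Of 33297 probe sets, 19460 were listed for 1 gene, 1754 for several and 12083 were unlisted. The brightest probe set stood for a gene with several. The 9 arrays were fitted together, with 3 group means, by limma 3.58.1 under R 4.3.3 (lmFit and eBayes gave 9.29 prior degrees of freedom), and p-values were adjusted over 18417 genes. The fit was also run on simulated data, with noise drawn independently for each gene and array, and the outcome is not reported here. Deviations shared between arrays were not simulated, so that run cannot show how the fit handles them. The number of arrays limits the precision.

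The members and lists were chosen with earlier results of these data known. All 10 members were named whatever their result, with YAP1, the pathway genes that passed (at most 8 per comparison), IGF1, IGF2, INSR, FOXO1, G6PC1 and PCK1, and the 3 genes most like each member that passed. Alternatives were other scalings, filters on dim genes, other uses of probe sets, other variance models, fewer arrays, a stricter threshold, a small RNA covariate and the replicate number as a block. Figures were drawn with Python 3.11.15 and matplotlib 3.10.9.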

Additional observations from a re-analysis of the deposited data

How the results depend on the processing

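Against nonsense siRNA the count of the 9 genes that passed was 2, and it was 1 with genes at or above the 50th percentile of signal, where IRS2 was left out as dim, and 1 each with all probe sets tested, only the 6 arrays of the comparison or an adjusted p under 0.01. With array weights it was 3. Leaving out each array gave 1 to 2. Between nonsense siRNA and untreated cells the count was 0, and 1 with array weights or without 3 arrays that an earlier analysis had set apart (replicate 3 of the YAP siRNA and of the untreated group, and replicate 2 of nonsense siRNA); leaving out each array gave 0 to 1. Against untreated cells it was 1, and 0 with all probe sets tested or at 0.01, 4 with array weights, 3 with the small RNA covariate and 2 without those 3 arrays; leaving out each array gave 0 to 2. The count of the 64 pathway genes was 8 against nonsense siRNA, and 4 with all probe sets tested, 16 with array weights, 5 at 0.01 and 5 with the small RNA covariate (4 to 10 leaving out each array). Between the controls it was 1, and 0 with all probe sets tested, at 0.01 or with the covariate, 17 with array weights and 15 without the 3 arrays (0 to 9). Against untreated cells it was 8, and 1 with all probe sets tested, 13 with array weights and 2 at 0.01 (3 to 8). The cause of these shifts was not tested, except that a stricter threshold can only lower a count. Over all genes the counts were 834, 113 and 569. With all probe sets tested, 424, 0 and 205 of 33297 probe sets passed, which are not counts of genes. The gene counts were 2404, 2620 and 1759 with array weights and 396, 11 and 250 at 0.01. With the covariate they were 451, 27 and 890, and without the 3 arrays 1287, 2319 and 1560. With only 6 arrays the control comparison gave 67, and leaving out each array gave 426 to 1231, 11 to 1470 and 279 to 775. With each array centred on its median the control comparison gave 54 higher and 23 lower genes, in place of 62 and 51. No setting turned the direction of a named difference that passed.

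Same-numbered arrays did not deviate together across all 3 groups (r from -0.337 to 0.344, and nonsense siRNA replicate 2 followed YAP siRNA replicate 3 best, at 0.470), so the numbers were not taken as pairs. Between untreated and YAP siRNA arrays, r for the same number was 0.04, 0.25 and 0.34, and r for different numbers ranged from -0.299 to 0.141. With the replicate block 2, 0 and 1 of the 9 genes and 7, 1 and 8 pathway genes passed in the 3 comparisons, and 789, 65 and 509 of all genes.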
